A study of Arabidopsis thaliana with 9 samples.

Results

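The genes described here are 10 Arabidopsis thaliana genes of cuticular wax formation, out of 32833 genes in the expression table. They were taken by gene identifier: KCS1 (AT1G01120), CER6 (AT1G68530, listed as CUT1), CER1 (AT1G02205), CER3 (AT5G57800), MAH1 (AT1G57750, listed as CYP96A15), CER4 (AT4G33790, listed as FAR3), WSD1 (AT5G37300), MYB30 (AT3G28910), MYB96 (AT5G62470) and SHN1 (AT1G15360, listed as WIN1). The set was chosen by identifier with the FPKM values of these genes in the same 9 samples, and their fold changes, already known. The members' values and calls are therefore a description of the 3 comparisons, not independent evidence of a direction.

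The cuticle is the waxy layer that seals the aerial epidermis of a plant against water loss and wetting. In epidermal cells, a fatty acid elongase in the endoplasmic reticulum lengthens acyl chains to very long ones, and its condensing enzyme, a 3-ketoacyl-CoA synthase (KCS), sets which chain lengths are made. The products then enter an alkane branch (CER1, CER3, MAH1) or a primary alcohol and wax ester branch (CER4, WSD1), and transcription factors such as MYB30, MYB96 and SHN1 switch these genes on.

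RNA was sequenced from shoots (rosettes) of wild-type Columbia-0 plants that were 4 weeks old. The Control group was not put under water, the Submergence group stood in still water for 30 min, and the Flooding group was held for 30 min in a channel with a flow of 8 L/s, both at a depth of about 10 cm. Each group had 3 samples, and each sample was RNA pooled from 10 plants, so single plants cannot be compared. No transgene or mutant was used, and no flow speed other than 8 L/s was sequenced. Levels are given as FPKM, fragments scaled to transcript length and to the mapped total of the sample, which corrects for gene length and so can be compared between genes.

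FPKM summed to between 752249 and 786474 per sample. The study reports how many reads were mapped per library, but read counts per gene were not in the table. The number of reads behind single values is therefore unknown. The median SD of a gene on the log2 scale was 0.11 in Control, 0.17 in Submergence and 0.19 in Flooding (n = 3 each). With limma, 1698 genes rose and 1590 fell under submergence, of 18814 tested. Under flooding 2137 rose and 3229 fell, of 18806 tested. After a median-of-ratios rescaling the flooding split became 2622 up and 2299 down, and the median log2 fold change of all genes moved from -0.10 to -0.0042. With quantile normalization the submergence split became 1556 up and 2200 down. No gene of 18864 had an adjusted p under 0.05 between flooding and submergence, although 2780 had an unadjusted p under 0.05 (limma). With all 9 samples in one limma fit, 90 were called higher and 141 lower under flooding. All 5 epidermal markers were above 1 FPKM in every sample, with a summed level of 476 to 598 FPKM in Control, 367 to 733 in Submergence and 340 to 695 in Flooding. Of 4 mesophyll markers, with a summed level of 12347.6 to 14577.5 FPKM in Control, 9862.57 to 11984.6 in Submergence and 9723.71 to 12374.7 in Flooding and a median log2 fold change of -0.40 and -0.31, LHCB2.1 rose under both stresses (0.62, adjusted p = 0.00679, and 0.70, adjusted p = 0.011, limma) and CAB3 fell under submergence (-0.63, adjusted p = 0.0174). The part of these levels in the wax gene values was not tested. None of the 6 floral markers exceeded 0.37 FPKM in any sample. Of 4 root markers, BGLU23 alone was above 1 FPKM, from 30.03 to 141.05 FPKM.

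Of the 10 wax genes, 7 had a mean of at least 0.5 FPKM over the samples compared and were tested in each comparison. MAH1, CER4 and SHN1 were below that level and received no test. KCS1, CER3 and MYB96 rose and CER6 fell in each stress group. These 3 of 7 up and 1 of 7 down compare with 9.03% of all tested genes up and 8.45% down under submergence, and with 11.4% up and 17.2% down under flooding. In the same 4 genes all stressed samples lay on one side of all Control samples. Over all tested genes such separation upward was found in 16.6% under submergence and 15.8% under flooding, and separation downward in 21.9% and 30.8%. CER1, WSD1 and MYB30 overlapped between the groups. Adjusted p-values are Benjamini-Hochberg values over all genes tested, called under 0.05, and measure only the spread between samples. In whole rosettes, fewer cells of a type and less RNA per cell cannot be told apart.

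**Figure D1:**
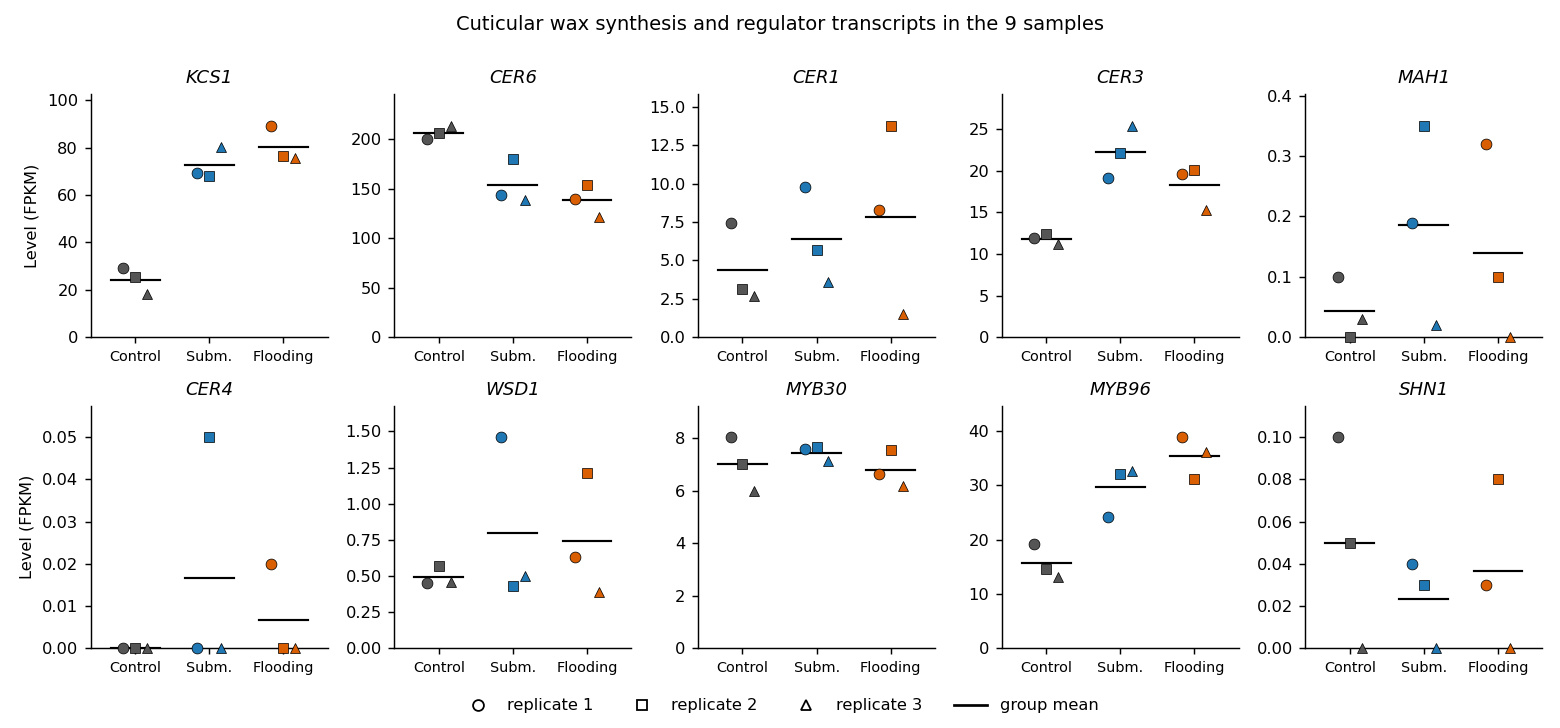
Each panel shows 1 gene, with the level in FPKM on a linear axis from 0, the 3 samples of each group as points whose shape gives the replicate number, and the group mean as a bar. KCS1, CER3 and MYB96 were higher and CER6 lower in every stressed sample, while CER1 ranged from 1.53 to 13.76 FPKM within Flooding alone.

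The order of the wax genes in Control ran from CER6 (207 FPKM) through KCS1 (24.3 FPKM), MYB96 (15.7 FPKM), CER3 (11.9 FPKM), MYB30 (7.003 FPKM) and CER1 (4.39 FPKM) to WSD1 (0.493 FPKM), with SHN1, MAH1 and CER4 at or below 0.05 FPKM. In that group the samples of KCS1 and MYB96 overlapped, as did those of MYB30 and CER1, while the other neighbours down to WSD1 and SHN1 were separate. Under submergence CER6 stayed first at 154 FPKM and KCS1 second at 72.6 FPKM, while MYB96 overlapped with CER3 and MYB30 with CER1. Under flooding CER6 had 138 FPKM, KCS1 80.4 FPKM and MYB96 35.4 FPKM, each separate from the next, and CER1 overlapped with MYB30.

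The 250 bases before the annotated start of KCS1, CER3, MYB96 and CER6 are given because these are the 4 genes that were called in both stress groups. They were read from the TAIR10.1 assembly in the direction of transcription, from the minus strand of chr1:59216-59465 for KCS1, the plus strand of chr5:23419934-23420183 for CER3, the minus strand of chr5:25081142-25081391 for MYB96 and the minus strand of chr1:25715025-25715274 for CER6. No annotated gene of the table overlapped these windows. Capitals mark every match, on either strand, to any of 6 short sequences searched (AACAAAC, a MYB-type site, then CAACTA, another MYB-type site, then GCCGCC, the box of ERF factors, then CGCGT, a calmodulin-binding factor site, then CACGTG, the G-box, and last ACGTG, the core of the abscisic acid response element, which the G-box contains).
KCS1: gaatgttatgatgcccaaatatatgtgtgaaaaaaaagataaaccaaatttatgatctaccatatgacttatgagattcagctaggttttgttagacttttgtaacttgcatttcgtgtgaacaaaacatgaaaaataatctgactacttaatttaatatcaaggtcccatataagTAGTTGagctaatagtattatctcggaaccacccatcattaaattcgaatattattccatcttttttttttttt
CER3: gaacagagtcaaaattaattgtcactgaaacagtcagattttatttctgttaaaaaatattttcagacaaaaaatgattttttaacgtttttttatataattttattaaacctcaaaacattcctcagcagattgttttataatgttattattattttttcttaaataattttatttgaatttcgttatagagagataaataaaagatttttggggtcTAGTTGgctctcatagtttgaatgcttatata
MYB96: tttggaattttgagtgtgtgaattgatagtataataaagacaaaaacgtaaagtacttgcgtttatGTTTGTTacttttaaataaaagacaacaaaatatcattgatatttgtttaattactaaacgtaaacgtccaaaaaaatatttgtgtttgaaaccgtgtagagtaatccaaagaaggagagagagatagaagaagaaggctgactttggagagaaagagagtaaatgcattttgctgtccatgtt
CER6: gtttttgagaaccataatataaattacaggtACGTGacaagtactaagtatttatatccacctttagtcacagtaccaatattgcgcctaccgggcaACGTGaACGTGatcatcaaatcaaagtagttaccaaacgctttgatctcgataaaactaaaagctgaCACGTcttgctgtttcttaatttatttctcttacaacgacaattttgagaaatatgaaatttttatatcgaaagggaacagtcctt

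KCS1 and CER3 each held 1 CAACTA, in KCS1 from base -74 to -69 and in CER3 from base -32 to -27 relative to the start. In windows that also take in the first 50 bases of the gene, 16.7% of 27419 protein-coding genes held that sequence. MYB96 held 1 AACAAAC, which 13.3% of promoters held. CER6 held 4 copies of ACGTG between bases -219 and -82. At least 1 copy was held by 26.7% of promoters, and the share with 4 was not counted. Over all 10 wax genes, CAACTA was found in 3, ACGTG in 3, AACAAAC in 1 and CGCGT in 1. GCCGCC and CACGTG were in none of the 10, against 2.57% and 7.67% of all promoters, and CGCGT was held by 8.69%. A match is a description of the letters only.

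KCS1 encodes a condensing enzyme that takes part in very-long-chain elongation in many shoot tissues, and lies at chr1:57164-59215 on the minus strand. Its level was 29.34, 25.41 and 18.03 FPKM in the Control samples. It was 69.29, 68.16 and 80.36 FPKM under submergence and 89.17, 76.37 and 75.62 FPKM under flooding. All 6 stressed samples lay above the highest Control sample, and the 2 stress groups overlapped. KCS1 was up-regulated 3.04-fold by submergence (log2 fold change 1.60 ± 0.18 SE, adjusted p = 0.00219 with limma). Under flooding it was up-regulated 3.36-fold (1.75 ± 0.18, adjusted p = 0.000333). These were the largest changes among the 7 wax genes tested, and 97.4% and 96.4% of all tested genes had a lower log2 fold change in the respective comparison.

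CER6, the condensing enzyme for the longest acyl chains of the cuticular wax, lies at chr1:25712414-25715024 on the minus strand. It was the most abundant of the 10 transcripts in every sample. It had 200.8, 205.99 and 213.55 FPKM in Control. Under submergence it had 144.12, 179.99 and 138.95 FPKM, and under flooding 139.77, 153.77 and 121.44 FPKM. Every stressed sample lay below the lowest Control sample, with Submergence 2 the closest to it. CER6 was down-regulated to 0.742 of the Control level by submergence (log2 fold change -0.43 ± 0.11, adjusted p = 0.0371 with limma) and to 0.666 by flooding (-0.59 ± 0.10, adjusted p = 0.00511). The submergence call did not hold under 9 of 14 alternatives, with an adjusted p of 0.0510 without a filter, 0.0520 after median-of-ratios rescaling and 0.0637 without the trend. It was also lost without Submergence 1 (0.0598), Submergence 3 (0.0944), Control 1 (0.0951), Control 2 (0.119) or Control 3 (0.131). The flooding call held under all 14 alternatives.

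The share of KCS1 and CER6 in the summed level of the KCS family, whose 21 members were all in the table, also differed between the groups. CER6 made up 36.0% ± 3.73 (SD, n = 3) of the summed KCS level in Control, 20.4% ± 2.74 under submergence and 19.5% ± 1.45 under flooding. The lowest Control sample had 32.6% and the highest stressed sample 23.5%, so the groups did not overlap. KCS1 made up 4.17% ± 0.72 in Control, 9.64% ± 1.37 under submergence and 11.4% ± 1.31 under flooding. The summed KCS level itself was 577 ± 41.2 FPKM in Control, 757 ± 36.6 under submergence and 713 ± 102 under flooding. Submergence lay above Control in all samples, while the Flooding sample with 595.6 FPKM was below the highest Control sample with 615.89 FPKM. These shares depend on the levels of all 21 genes and were not tested.

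**Figure D2:**
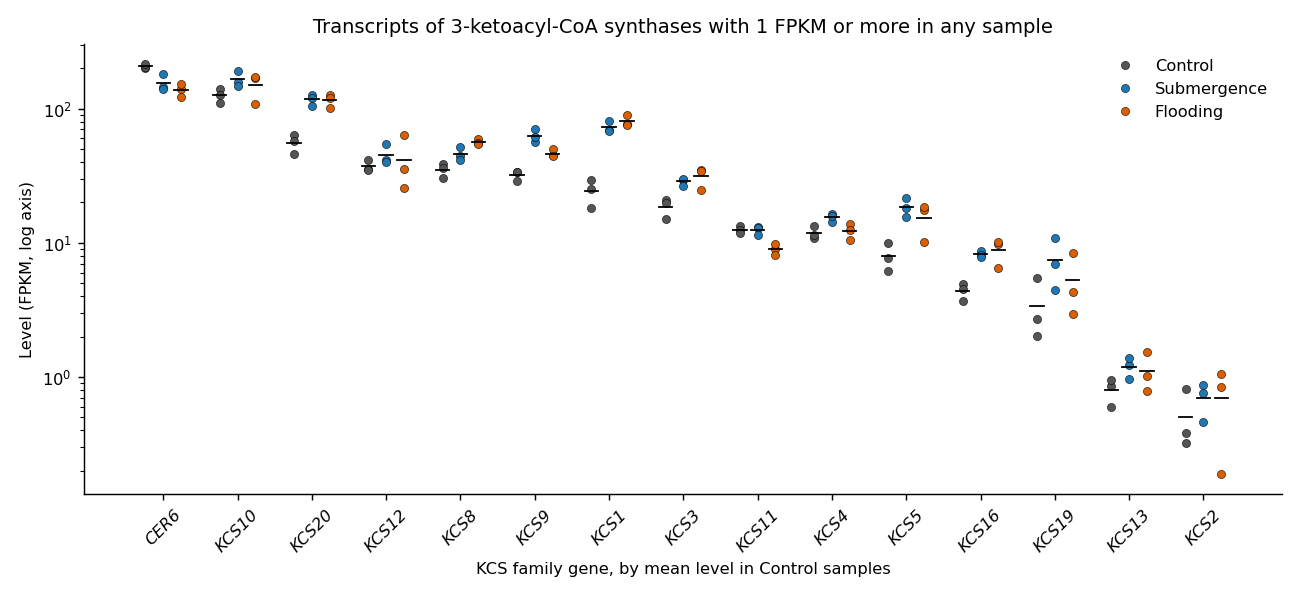
The level of each KCS gene that reached 1 FPKM in any sample is plotted on a log axis in FPKM, with 1 point per sample, a bar at each group mean, and genes ordered by their Control mean. CER6, highest in Control at 207 FPKM, falls under both stresses, while KCS1 and KCS20 lie higher in all stressed samples than in Control.

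The other KCS genes and elongase subunits are given beside KCS1 and CER6, without a test of these 2 genes against their family. Among 27 other genes of chain elongation, 21 were tested and 6 rose under each stress, with 1 that fell, beside 9.03% of all tested genes up and 8.45% down under submergence and 11.4% up and 17.2% down under flooding. The median log2 fold change was 0.38 under submergence and 0.19 under flooding, against -0.03 and -0.10 for all tested genes. KCS20, which makes very long chains for wax and suberin, had 63.87, 57.14 and 46.24 FPKM in Control. It had 126.31, 105.41 and 120.06 FPKM under submergence and 126.46, 120.24 and 101.18 FPKM under flooding. Its fold change was 2.11 with adjusted p = 0.00305 under submergence (log2 fold change 1.08 ± 0.13) and 2.09 with adjusted p = 0.00134 under flooding (1.06 ± 0.14, both limma). Its partner in redundancy, KCS2, was at 0.19 to 1.05 FPKM and was not called (adjusted p = 0.502 and 0.794).

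KCS5, the closest relative of CER6, did not fall with it. It rose from 9.92, 7.7 and 6.15 FPKM in Control to 21.74, 15.49 and 18.15 FPKM under submergence, a log2 fold change of 1.22 ± 0.20 (adjusted p = 0.00771, limma). Under flooding it had 17.43, 18.44 and 10.13 FPKM (0.92 ± 0.26, adjusted p = 0.0344), a call lost under 6 of 14 alternatives, among them without Flooding 1 (0.103), Flooding 2 (0.0880), Control 2 (0.0972) or Control 3 (0.117). None of the 2562 windows of 50 bases in CER6, the length of the longer read, was found elsewhere in the nuclear genome. KCS3, KCS9 and KCS16 also rose under both stresses, by 0.64, 0.96 and 0.90 on the log2 scale under submergence and 0.75, 0.53 and 0.96 under flooding. The calls of KCS3 were lost without Submergence 2 (0.0575) or Control 2 (0.0530) in one comparison and without Flooding 1 (0.0558) or Control 3 (0.0561) in the other. KCS8 rose under flooding (0.69 ± 0.10, adjusted p = 0.00263) with a submergence value of 0.38 and adjusted p = 0.0791. KCS4 rose under submergence (0.39 ± 0.11, adjusted p = 0.0493), a call lost under 11 of 14 alternatives, with an adjusted p from 0.0590 to 0.154 on leaving out Submergence 2 or 3 or any Control sample. KCS11 fell under flooding (-0.48 ± 0.11, adjusted p = 0.014) and had a submergence value of -0.00, and that call was lost without Control 1 (0.0607) or Control 2 (0.0590). The differences between flooding and submergence for KCS8, KCS4 and KCS11 were not called (adjusted p = 0.281, 0.305 and 0.179).

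CER2 and CER26, BAHD-family proteins that let CER6 act on the longest chains, were measured as its direct partners. CER26 had 72.06, 68.63 and 66.01 FPKM in Control and 53.17, 45.22 and 44.13 FPKM under submergence, all below Control. It fell under submergence (log2 fold change -0.54 ± 0.09, adjusted p = 0.00974 with limma), a call that held under all 14 alternatives. Under flooding it had 49.52, 63.42 and 49.66 FPKM (-0.35 ± 0.11, adjusted p = 0.052). CER2 had 27.75 to 51.24 FPKM over the 9 samples and was not called (0.31, adjusted p = 0.122 under submergence, and -0.06, adjusted p = 0.821 under flooding). The elongase subunits shared by all KCS enzymes, KCR1, PAS2 and CER10, had log2 fold changes between -0.14 and 0.19 in both comparisons and were not called.

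CER3, at chr5:23420184-23424117 on the plus strand, works with CER1 to turn very long acyl chains into alkanes, the main wax of the leaf and stem. It had 11.97, 12.39 and 11.22 FPKM in Control. Under submergence it had 19.18, 22.1 and 25.39 FPKM, and under flooding 19.62, 20.11 and 15.28 FPKM. All stressed samples lay above Control. CER3 was up-regulated 1.86-fold by submergence (log2 fold change 0.89 ± 0.12, adjusted p = 0.00359 with limma) and 1.53-fold by flooding (0.61 ± 0.12, adjusted p = 0.00903). Both calls held under all 14 alternatives.

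CER1, the partner of CER3, lies at chr1:418416-422579 on the plus strand. It had 7.41, 3.11 and 2.66 FPKM in Control, 9.81, 5.68 and 3.61 FPKM under submergence and 8.26, 13.76 and 1.53 FPKM under flooding. The highest and the lowest of the 9 samples were both Flooding samples, and all groups overlapped. The log2 fold change was 0.56 ± 0.47 under submergence (adjusted p = 0.462, limma) and 0.50 ± 0.77 under flooding (adjusted p = 0.674). The flooding value turned to -0.13 without Flooding 2 and became 1.41 without Flooding 3 (adjusted p = 0.0502, limma). With a replicate block the submergence value of CER1 had an SE of 0.14 (adjusted p = 0.0598). With all samples and no block, the standard errors of CER1 were larger than those of every other wax gene tested. The level of CER3 over that of CER1 ran from 1.62 to 4.22 in Control, from 1.96 to 7.03 under submergence and from 1.46 to 9.99 under flooding.

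**Figure D3:**
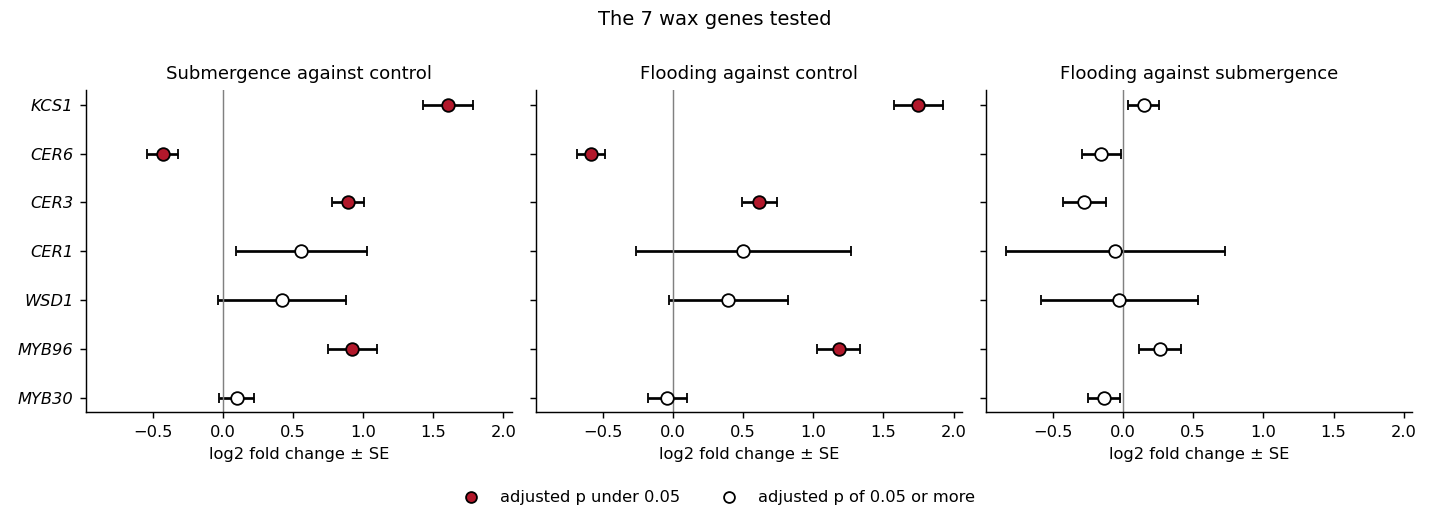
The log2 fold change of the 7 wax genes tested is shown in 3 panels, 1 for each comparison, with bars of 1 SE from limma and filled points for an adjusted p under 0.05. KCS1, CER3 and MYB96 lie to the right of 0 and CER6 to the left in both stress panels, none is filled in the panel of flooding against submergence, and CER1 has the widest bars, with an SE of 0.47 to 0.78.

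The levels of CER1 ran beside those of PDF1 and DCR in single samples. PDF1, a protoderm marker, had 110.11, 53.97 and 39.84 FPKM in Control, 179.99, 105.62 and 44.2 FPKM under submergence and 122.73, 195.04 and 27.97 FPKM under flooding. DCR, an acyltransferase of cutin formation, had 15.27, 5.46 and 5.58 FPKM, then 23.2, 12.75 and 5.63 FPKM, then 18.91, 30.24 and 2.13 FPKM in the same order. In all 3 genes Flooding 2 was the highest of the 9 samples and Flooding 3 the lowest. The other epidermal markers were also lowest in Flooding 3, but only ATML1 was highest in Flooding 2 (25.12 FPKM). PDF2 was highest in Control 1 (31.96 FPKM), and GL2 and LTP1 in Submergence 1 (9.14 and 489.6 FPKM). Over the 9 samples and on the log2 scale, Pearson's r of CER1 was 0.99 with DCR and 0.98 with PDF1, and 0.98 with PDF1 after each group's mean was taken away. DCR and PDF1 were, with HMGB6, the genes most like CER1 among 12995 genes, so their high r is partly a result of selection. These points share libraries and r is given as a description. The r with PDF1 was 0.75 for MAH1, 0.74 for WSD1, 0.73 for SHN1 and 0.72 for MYB30, and 0.34 for CER3, 0.32 for KCS1, 0.24 for CER4, 0.21 for MYB96 and -0.00011 for CER6. After each group's mean was taken away it was 0.88 for SHN1, 0.77 for MYB30, 0.73 for MAH1, 0.71 for WSD1 and 0.52 for CER6, and between -0.11 and 0.24 for the other 4 genes. SHN1, MAH1 and CER4 never exceeded 0.35 FPKM and were listed at 0 in 3, 2 and 7 samples, so their r rests on values near 0. Under submergence 9.03% of all tested genes rose and 8.45% fell, and under flooding 11.4% rose and 17.2% fell. Of the 5 epidermal markers, PDF1 included, none was called in either stress. The part of these genes' levels in the spread of CER1 was not tested.

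**Figure D4:**
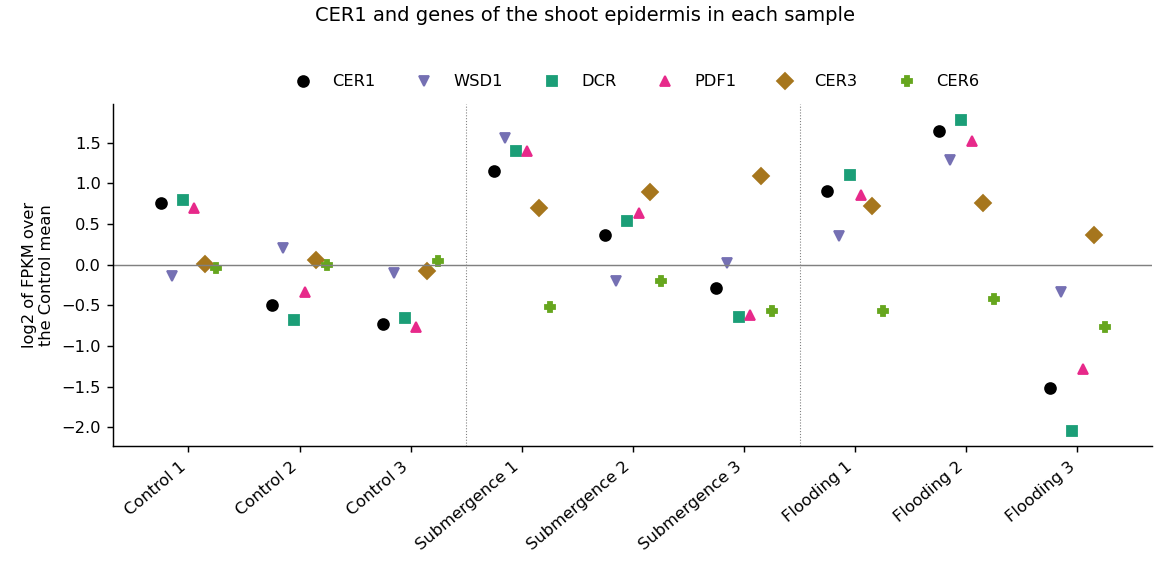
For each of the 9 samples on the horizontal axis, the vertical axis gives log2 of the level over that gene's Control mean for 6 genes, with 1 symbol per gene. CER1, DCR and PDF1 lie together at the bottom in Flooding 3 and near the top in Flooding 2, whereas CER3 is above 0 and CER6 below 0 in all 6 stressed samples.

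MAH1, the midchain alkane hydroxylase that makes secondary alcohols and ketones in stem wax, was hardly present in the rosettes. It had 0.1, 0 and 0.03 FPKM in Control, 0.19, 0.35 and 0.02 FPKM under submergence and 0.32, 0.1 and 0 FPKM under flooding. The groups overlapped and no test was made. CER1L1, the nearest relative of CER1, was likewise at or below 0.15 FPKM in all samples.

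CER4, the fatty acyl-CoA reductase for the primary alcohols of stem wax, was listed at 0 in 7 of 9 samples, with 0.05 FPKM in Submergence 2 and 0.02 FPKM in Flooding 1. WSD1, the wax ester synthase of the stem, had 0.45, 0.57 and 0.46 FPKM in Control, 1.46, 0.43 and 0.5 FPKM under submergence and 0.63, 1.21 and 0.39 FPKM under flooding. It was just above the level needed for a test, with a mean of 0.645 and 0.618 FPKM over the samples of the 2 comparisons with Control. A single sample stood above the rest in each stress group, Submergence 1 and Flooding 2, and the groups overlapped. The log2 fold change was 0.42 ± 0.46 (adjusted p = 0.575, limma) and 0.39 ± 0.42 (adjusted p = 0.538).

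Among 12 other genes of the alkane and alcohol branches, 5 were tested and FAR1 alone was called, under flooding. Of all tested genes, 9.03% rose and 8.45% fell under submergence, and 11.4% rose and 17.2% fell under flooding. FAR1, a fatty acyl-CoA reductase best known for alcohols of suberin, had 3.18, 1.97 and 1.7 FPKM in Control and 6.12, 6.04 and 3.18 FPKM under flooding (log2 fold change 1.12 ± 0.32, adjusted p = 0.035 with limma). Control 1 and Flooding 3 had the same level, and the call was lost under 6 of 14 alternatives, among them without Flooding 1 (0.106), Flooding 2 (0.0906), Control 2 (0.112) or Control 3 (0.118). Under submergence FAR1 had 3.8, 3.16 and 6.68 FPKM (0.94 ± 0.33, adjusted p = 0.0982).

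MYB96, an R2R3-type MYB factor that raises wax genes in response to abscisic acid and drought, lies at chr5:25078991-25081141 on the minus strand. It had 19.14, 14.7 and 13.13 FPKM in Control. It had 24.22, 32.14 and 32.58 FPKM under submergence and 38.87, 31.15 and 36.07 FPKM under flooding. All stressed samples lay above Control, and the stress groups overlapped. MYB96 was up-regulated 1.89-fold by submergence (log2 fold change 0.92 ± 0.17, adjusted p = 0.0133 with limma) and 2.27-fold by flooding (1.18 ± 0.15, adjusted p = 0.00123). The submergence call was lost without Control 2 (0.0600) and without Control 3 (0.0537), and the flooding call held under all 14 alternatives.

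MYB30, an R2R3-type MYB factor that raises very-long-chain elongation genes in the cell death response to pathogens, had 8.03, 7.01 and 5.97 FPKM in Control. It had 7.58, 7.64 and 7.11 FPKM under submergence and 6.62, 7.53 and 6.19 FPKM under flooding. The stressed samples lay within the Control range, and the log2 fold change was 0.10 ± 0.12 (adjusted p = 0.646, limma) and -0.04 ± 0.14 (adjusted p = 0.862). The level of MYB96 over that of MYB30 was 2.097 to 2.38 in Control, 3.20 to 4.58 under submergence and 4.14 to 5.87 under flooding, with no overlap between Control and either stress.

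SHN1, an AP2/ERF factor that switches on cutin and wax genes, was at or below 0.1 FPKM in every sample and listed at 0 in replicate 3 of each group. Its relatives were also low, with SHN2 at 0.52 to 2.06 FPKM and SHN3 at 0.07 to 1.07 FPKM. SHN2 was not called (log2 fold change 0.84 ± 0.40, adjusted p = 0.205 under submergence, and 0.56 ± 0.59, adjusted p = 0.529 under flooding).

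Of 16 other regulators, 14 were tested. None was called under submergence, where 9.03% of all tested genes rose and 8.45% fell. Under flooding 3 fell and none rose, beside 17.2% and 11.4% of all tested genes. The list median was then -0.10, equal to that of all tested genes, after 0.01 under submergence. MYB94, which shares wax targets with MYB96, had 11.32, 10.49 and 9.69 FPKM in Control and 7.8, 7.61 and 6.17 FPKM under flooding, opposite in direction to MYB96 (log2 fold change -0.54 ± 0.12, adjusted p = 0.0152 with limma). This call was lost without Control 1 (0.0633) or Control 2 (0.0604). Under submergence MYB94 had 10.05, 7.76 and 8.17 FPKM (-0.28, adjusted p = 0.17). MYB16, an activator of epidermal cell shape and cuticle genes, fell from 19.7, 18.42 and 14.63 FPKM to 7.03, 10.31 and 7.84 FPKM under flooding (-1.07 ± 0.17, adjusted p = 0.00341). HDG1, a homeodomain factor of the epidermis, fell by 0.85 on the log2 scale under flooding (adjusted p = 0.00237).

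DEWAX and DEWAX2, ERF factors that repress wax genes, were the most abundant regulators, at 77.57 to 172.6 FPKM and 162.25 to 307.23 FPKM. DEWAX was higher in all submerged samples than in Control (log2 fold change 0.68 ± 0.20, adjusted p = 0.0584 with limma) and overlapped with Control under flooding (0.43 ± 0.20, adjusted p = 0.144). DEWAX2 was not called (adjusted p = 0.175 and 0.802). CER7, a subunit of the exosome, and CER9, a ubiquitin ligase, both known from wax mutants, had log2 fold changes between -0.11 and 0.03.

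Wax leaves the cell through ABC transporters and lipid transfer proteins, and 6 such genes were all tested. Under each stress 1 rose and none fell. Of all tested genes, 9.03% rose and 8.45% fell under submergence, and 11.4% rose and 17.2% fell under flooding. LTPG2, a lipid transfer protein on the plasma membrane, rose from 21.35, 25.09 and 20.1 FPKM in Control to 43.39, 27.93 and 38.3 FPKM under submergence (log2 fold change 0.70 ± 0.17, adjusted p = 0.033 with limma). Under flooding it had 27.67, 32.33 and 27.79 FPKM (0.40 ± 0.11, adjusted p = 0.0342). Each call was lost under 6 of 14 alternatives, for submergence among them without Submergence 3 (0.0894) or Control 1, 2 or 3 (0.0648 to 0.122), and for flooding without Flooding 1 (0.0592), Flooding 2 (0.0831), Control 1 (0.110) or Control 3 (0.121). LTPG1 lay above Control in all stressed samples and missed the threshold (0.39, adjusted p = 0.0552, and 0.37, adjusted p = 0.0545). The transporters ABCG11 and ABCG12 were at 13.14 to 21.31 FPKM and 31.03 to 44.66 FPKM and were not called, with an adjusted p of 0.342 and 0.349 under submergence and 0.784 and 0.081 under flooding.

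Cutin, the polyester that the wax is set in, is made by other enzymes, and 15 of 16 such genes were tested. Under submergence 1 rose and 1 fell, beside 9.03% and 8.45% of all tested genes, and under flooding 1 rose and 2 fell, beside 11.4% and 17.2%. The list medians were 0.34 and 0.32. HTH, an oxidoreductase of cutin monomers, had 10.96, 8.07 and 6.21 FPKM in Control and 17.6, 29.16 and 14.48 FPKM under flooding (log2 fold change 1.24 ± 0.29, adjusted p = 0.0168 with limma, lost without Control 2 at 0.0561 and Control 3 at 0.0628). DCF, a feruloyl transferase, fell under both (-0.27, adjusted p = 0.04, and -0.56, adjusted p = 0.009), with the submergence call lost under 10 of 14 alternatives, among them the fits without any 1 of the 6 samples (0.0502 to 0.157). GPAT4, an acyltransferase, fell by 0.47 on the log2 scale under flooding (adjusted p = 0.0281), a call lost under 4 of 14 alternatives, each of them the fit without Flooding 1 (0.0856) or without 1 Control sample (0.0619 to 0.0976). CYP86A4, a fatty acid hydroxylase, rose under submergence (1.38 ± 0.36, adjusted p = 0.0389), a call lost under 8 of 13 alternatives, among them without any 1 of the Submergence samples (0.0659 to 0.0970) or without Control 2 (0.126) or Control 3 (0.134).

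**Figure D5:**
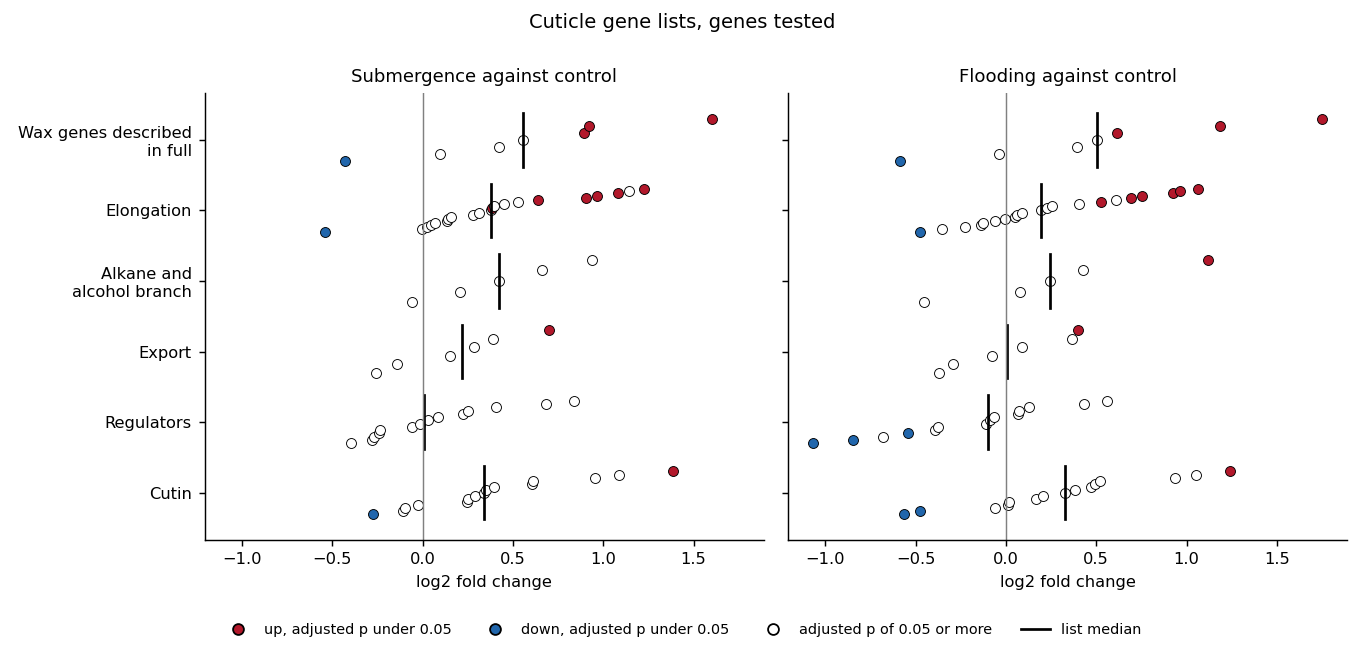
Each point is 1 tested gene, placed by its log2 fold change on the horizontal axis and by its list on the vertical axis, with submergence on the left, flooding on the right, colour for an adjusted p under 0.05 and a bar at each list's median. The elongation list holds 6 called rises and 1 called fall in each panel, and the regulators hold 3 called falls under flooding and no call under submergence. Of all tested genes, 9.03% were called up and 8.45% down under submergence, and 11.4% up and 17.2% down under flooding.

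Over the 5 lists of other cuticle genes together, 8 of 61 tested rose and 2 fell under submergence, beside 9.03% and 8.45% of all tested genes, with a median log2 fold change of 0.28. Under flooding 9 of 61 rose and 6 fell, beside 11.4% and 17.2%, with a median of 0.09. Without Control 2 these counts became 4 and 1 under submergence and 6 and 3 under flooding. The calls over all genes fell as well, to 890 up and 489 down of 18855 tested under submergence. Under flooding they fell to 1595 up and 1643 down of 18827 tested. The 2 comparisons share their Control samples, so their similarity is no second measurement.

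Flooding with flow and still submergence were compared directly. According to the study's methods, flooded plants were fixed with metal anchors in the channel, and submerged plants were kept in a plastic container. Flow cannot be told apart from these differences. None of the 7 wax genes tested was called, beside 0% of all genes up and 0% down, and none was separated between the groups, beside 6.2% upward and 15.4% downward. The log2 difference of flooding over submergence was 0.15 ± 0.11 for KCS1, -0.16 ± 0.14 for CER6, -0.28 ± 0.15 for CER3 and 0.26 ± 0.15 for MYB96. The adjusted p-values of these 4 lay between 0.47 and 0.695. MYB30 (-0.14 ± 0.12), CER1 (-0.06 ± 0.78) and WSD1 (-0.03 ± 0.56) were not called either. None of the other cuticle genes was called, of 62 tested, and an adjusted p above the threshold does not show equal levels.

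The genes most like each wax gene across the 9 samples, by Pearson's r on the log2 scale among 12995 genes with a mean of at least 5 FPKM, included members of the lists above. KCS1 was most like BBX32, a B-box factor (r = 0.99), and KCS20 (r = 0.98). CER1 was most like DCR (r = 0.99), HMGB6 (r = 0.98) and PDF1 (r = 0.98), and CER6 most like PME3, a pectin methylesterase (r = 0.99). CER3 was most like AT1G45688 and ABCG25, an exporter of abscisic acid (r = 0.98 each), and MYB96 most like UBC16 (r = 0.99), AT1G11050 (r = 0.99) and AR781 (r = 0.98). For MYB30 and WSD1 the highest r was 0.98 with AT4G38350 and 0.95 with AT3G52900. For SHN1, MAH1 and CER4, which were near 0 FPKM, the highest r was 0.97, 0.92 and 0.86. These values rest on 9 points in 3 groups and are a description.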

How the data were processed

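Poly(A)-selected RNA of 9 shoot samples was sequenced as paired reads of 50 and 25 bases. According to the study's methods, reads were mapped to TAIR10 with STAR and counted per gene with featureCounts, and the authors deposited FPKM values, normalized to total counts and transcript length. The table's own name mentions RSEM, so which counter gave the FPKM is not settled. Columns headed Stress1 and Stress2 were taken as Submergence and Flooding from panel headings in the study's supplement, so a swap there would swap those groups. Every sample column was assigned.

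FPKM values were tested as log2(FPKM + 0.1) with limma 3.58.1 (R 4.3.3; lmFit, eBayes with trend) on the 6 samples of each comparison, for genes with a mean of at least 0.5 FPKM. Fold changes are on that scale, which understates changes of low genes. The fit was tested on simulated data. Alternatives were a pseudocount of 1, no filter, a mean of at least 2 FPKM, median-of-ratios and quantile rescaling, no trend, all 9 samples in one fit, a replicate block and leaving out each sample. The members and lists were chosen with earlier results of these data known. The text names all members, their direct counterparts whether called or not, and the called genes of the other cuticle and marker lists. Some uncalled markers are named as well. Sequences came from TAIR10.1, where 32520 of 32548 shared nuclear genes had the table's start and end. Tables were made with Python 3.11.15.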

Additional observations from a re-analysis of the deposited data

Results flagged for a closer look

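WRI4, an AP2-type factor of fatty acid synthesis for stem wax, lay on opposite sides of Control under the 2 stresses, although neither change passed the test. It had 40.32, 39.88 and 44.32 FPKM in Control, 46.77, 52.46 and 48.84 FPKM under submergence and 25.97, 31.17 and 38.99 FPKM under flooding. Every submerged sample lay above and every flooded sample below all Control samples. WRI4 was picked from the wax and other cuticle genes by this separation, which is therefore no separate evidence. Of all tested genes, 16.6% were separated upward under submergence and 30.8% downward under flooding. The share with both was not counted. Its log2 fold change was 0.25 ± 0.08 under submergence (adjusted p = 0.076, limma) and -0.39 ± 0.15 under flooding (adjusted p = 0.0857). The difference of flooding from submergence was -0.64 ± 0.15 on the log2 scale and did not pass the test (adjusted p = 0.179).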

How the results depend on the processing

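Of the 7 wax genes tested, 4 were called under each stress and none between the stresses. Leaving out 1 sample at a time gave 2 to 4 calls under submergence (2 without Control 2 or Control 3), 4 to 4 under flooding and 0 to 0 between the stresses. For the other cuticle genes the counts were 10, 15 and 0, with 5 to 11, 9 to 20 and 0 to 0 on leaving out 1 sample (5 and 9 without Control 2), and 6 under submergence without the eBayes trend. Calls over all genes also fell without Control 2, to 890 up and 489 down under submergence and 1595 and 1643 under flooding. Under submergence they fell to 979 up and 577 down without Control 3, and to 1530 and 1255 without the trend. Samples with the same number did not consistently deviate together (correlations from -0.15 to 0.47, over 0.1 in 4 of 9 pairs, best with the own number in 6 of 18 checks). Samples with different numbers had correlations from -0.50 to 0.37. The numbers were therefore not taken to pair samples. With a replicate block, 3 wax genes were called under submergence (CER6 at adjusted p = 0.0664), 4 under flooding and 0 between the stresses, and 13, 16 and 0 other cuticle genes.

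The log2 values that changed sign were all uncalled, and the cause was not tested. Leaving out 1 sample at a time gave MYB30 a log2 fold change of -0.0121 (without Control 3) to 0.199 under submergence and -0.149 to 0.0620 under flooding, where it was 0.0571 with median-of-ratios and 0.00346 with quantile normalization (0.0218 without Flooding 3, 0.0620 without Control 1). CER1 ran from -0.134 (without Flooding 2) to 1.41 under flooding and from -0.693 to 0.851 between the stresses, where it was 0.0183 with a pseudocount of 1, 0.0140 with median-of-ratios and 0.0552 with quantile normalization (0.851 without Flooding 3, 0.309 without Submergence 1). WSD1 ran from -0.404 to 0.462 between the stresses, and was 0.0339 with median-of-ratios and 0.0401 with quantile normalization (0.0173 without Flooding 1, 0.305 without Flooding 3, 0.462 without Submergence 1). Read counts per gene were not recovered from FPKM rounded to hundredths, so the number of reads behind the low genes is unknown.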

Other observations

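Guard cells, whose outer walls also carry a cuticle, were represented by 5 marker genes. MYB60, a guard cell MYB factor, had 16.52, 15.76 and 16.37 FPKM in Control, 11.28, 10.03 and 12.56 FPKM under submergence and 10, 7.93 and 9.52 FPKM under flooding. It fell under both stresses (log2 fold change -0.52 ± 0.10, adjusted p = 0.0142, and -0.83 ± 0.11, adjusted p = 0.0013, limma). KAT1, a potassium channel of guard cells, rose from 5.7 to 6.34 FPKM in Control to 7.66 to 9.31 FPKM under submergence and 7.37 to 9.01 FPKM under flooding (0.53, adjusted p = 0.0193, and 0.41, adjusted p = 0.0326). FAMA, a factor of guard cell identity, fell under flooding (-0.39 ± 0.10, adjusted p = 0.0279) and had -0.36 with adjusted p = 0.109 under submergence. HT1 lay above Control in all submerged samples (0.50, adjusted p = 0.0784) and overlapped with it under flooding (0.16, adjusted p = 0.602, limma). EPF1 was at or below 0.62 FPKM and was not tested. The summed level of the 5 markers was 46.84 to 52.79 FPKM in Control, 37.92 to 46.29 FPKM under submergence and 37.73 to 40.17 FPKM under flooding.

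Suberin is a related polymer of roots and wounds, and 7 of its genes were listed apart. None of these 7 was above 1.03 FPKM in any sample. ASFT, a feruloyl transferase, was the single one tested (0.33, adjusted p = 0.524 under submergence, and 0.06, adjusted p = 0.936 under flooding, limma). FAR1 and KCS20, placed in other lists above, also take part in suberin and were higher, at 1.7 to 6.68 FPKM and 46.24 to 126.46 FPKM.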
